A study of Mus musculus with 16 samples.

Results

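The keratin genes were taken as every gene of the deposited FPKM table whose symbol is Krt followed by a number and at most 1 letter. There were 52 of them among 31274 genes. FPKM is the number of fragments per kilobase of transcript, scaled to the mapped fragments of the sample, so levels can be compared between genes of different length. They were followed in the seminal vesicles (SVs) of 5-week-old C57BL/6 males in 4 groups of 4 samples. WT-veh were wild-type (WT) males given corn oil alone, and WT-DES were WT males given diethylstilbestrol (DES), a synthetic oestrogen, injected under the skin from day 1 to day 5, 2 µg daily for each pup. αERKO-veh and αERKO-DES were males with a disrupted *Esr1*, the gene of oestrogen receptor α (ERα), in all tissues, given the same oil or the same DES. WT pups came from purchased pregnant females and αERKO pups from crosses of heterozygotes, so the origin of the litters and the genotype cannot be told apart. In the methods RNA came from 3 pools of mice in WT-DES and from 4 individual mice in each other group, while the table holds 4 WT-DES samples. How these relate is not stated, so the p-values measure only the spread between these samples.

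*Esr1* FPKM lay between 0.91 and 1.75 in the αERKO samples and between 2.81 and 19.64 in the WT samples, without overlap. The SV secretion genes, which mark this tissue, had summed levels of 49597 to 57994 FPKM for WT-veh and 2436 to 7950.9 for WT-DES, with αERKO-veh samples at 30143 to 47254 and αERKO-DES samples at 33532 to 63298. All 8 of them were lower after DES in WT males (limma adjusted p of at most 0.05 and at least 1.5-fold), and in the same comparison 8 of 8 leukocyte markers (2 of them tested only because their mean exceeded 1 FPKM in WT-DES) and 6 of 6 fibroblast markers were higher and 4 of 5 smooth muscle and 4 of 5 anterior prostate markers lower, beside 28.9% of all genes tested that were higher and 23.9% that were lower. SV is bulk tissue, so fewer cells of a type and less RNA per cell cannot be told apart for any gene below. WT-veh 4 and αERKO-veh 2, 3 and 4 stood apart by skeletal muscle markers, with a mean log2(FPKM + 1) over 6 genes of 6.93 to 7.72 against 1.80 to 4.49 in the other samples, and these markers are repeated beside the keratins they moved with. WT-DES 1 stood apart by smooth muscle markers, which summed to 3165.4 FPKM there against 747.5 to 1174 in the other WT-DES samples and 2771 to 3432.7 in WT-veh. WT-DES 1 and WT-DES 4 also stood apart by epithelial genes that are described with the keratins they moved with.

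Keratins are the intermediate filament proteins of epithelial cells. Each filament pairs an acidic type I keratin with a basic type II keratin, and the pair in use marks the kind of epithelium: Krt8 with Krt18 and Krt19 in simple, single-layered epithelium, Krt5 with Krt14 and Krt15 in basal cells, Krt4 with Krt13 in the upper layers of wet stratified epithelium, Krt1 with Krt10 in those of the epidermis, and Krt6a and Krt6b with Krt16 and Krt17 in stressed or fast-growing stratified epithelium. The SV epithelium is a layer of columnar secretory cells over scattered basal cells. In the female reproductive tract, oestrogen is known for driving stratification and cornification of the vaginal epithelium.

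Of the 52 genes, 51 had a position in GENCODE M21 (GRCm38), 27 on chromosome 11 between 99232761 and 100269871 and 24 on chromosome 15 between 101347444 and 102032027, the type I and type II clusters. *Krt18* is the type I gene that lies on chromosome 15, with 23697 bp between it and its partner *Krt8*, which is read from the opposite strand. *Krt6a* and *Krt6b* are neighbours on chromosome 15 with 9622 bp between them, and 19.6% of the windows of 1 read length in the longest *Krt6a* transcript also occur in *Krt6b*. How the fragments of such windows were divided is not stated, so the split between these genes is uncertain, as is that between *Krt81* and *Krt86*, which share 18.9% of the windows of *Krt81*. Of *Krt14* and *Krt16* transcripts, 0.57% and 0.62% of windows were shared.

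RefSeq promoter windows of 250 bases before to 50 bases after the transcription start (GRCm38.p6) were at hand for 35 of the 52 genes, 11 of them among those tested below, with 36 windows in all. They were searched on both strands for TATAAA, the core of the TATA box, for TGANTCA, bound by AP-1, and for the palindromic oestrogen response element of GGTCA and its inverted repeat with 3 bases between. TATAAA was found at any position in 52.8% of the keratin windows and in 13.6% of all 32851 windows. It was in 3 of the 12 windows of tested keratins, those of *Krt8*, *Krt10* and *Krt20*. The match began 26 bases before the start in *Krt10* and 29 before it in *Krt20*, while the matches of *Krt8* spanned the start itself. TGANTCA was found in 2 of the 36 windows, both of *Krt13* from separate transcription starts, against 7.81% of all windows. The full oestrogen response element was found in 0 of the 36 windows and in 0.07% of all windows. No match of one motif overlapped a match of another in these windows. A match describes letters only and shows no binding. The 120 bases before the start are shown for 4 keratins of different epithelial layers that were higher in WT-DES, each lying outside the annotated gene, from 5′ to 3′ on the minus strand that carries the gene. Capitals mark TATAAA, present in the stretches of *Krt20* and *Krt10* and not in those of *Krt5* and *Krt13*. The windows are chr11:99438154-99438273 for *Krt20*, chr15:101712906-101713025 for *Krt5*, chr11:100121567-100121686 for *Krt13* and chr11:99389365-99389484 for *Krt10*.
Krt20: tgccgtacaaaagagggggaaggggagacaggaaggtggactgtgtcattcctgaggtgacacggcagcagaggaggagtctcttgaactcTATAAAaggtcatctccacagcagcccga
Krt5: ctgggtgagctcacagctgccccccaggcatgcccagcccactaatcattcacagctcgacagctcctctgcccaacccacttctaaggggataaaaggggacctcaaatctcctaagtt
Krt13: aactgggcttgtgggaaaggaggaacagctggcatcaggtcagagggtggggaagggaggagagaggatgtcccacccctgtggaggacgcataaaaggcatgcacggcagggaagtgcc
Krt10: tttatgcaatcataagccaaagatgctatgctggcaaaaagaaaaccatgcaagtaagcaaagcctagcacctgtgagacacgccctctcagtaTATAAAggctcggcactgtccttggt

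In WT-veh the simple epithelial keratins were the most abundant. *Krt18* was highest at 516 ± 31.6 FPKM (SD, n = 4), above 99.6% of all genes in the table, followed by *Krt19* at 454 ± 32.0 and *Krt8* at 188 ± 14.1. The samples of *Krt18* and *Krt19* did not overlap, and neither did those of *Krt19* and *Krt8*. The basal keratins *Krt15* (82.7 ± 23.5), *Krt5* (61.2 ± 7.37) and *Krt14* (50.1 ± 4.72) came next, followed by *Krt7* at 38.2 ± 8.40. Neighbours in this order overlapped, while every *Krt15* value lay above every *Krt14* value. The simple epithelial keratins *Krt7*, *Krt8*, *Krt18*, *Krt19* and *Krt20* made up 80.8% to 85.6% of the summed keratin FPKM of these samples, and the basal keratins *Krt5*, *Krt14* and *Krt15* held 11.249% to 15.021%. A keratin was tested if its mean FPKM was above 1 in at least 1 group, which 20 of the 52 did, 13 of them in WT-veh itself.

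The other 32 were near 0 everywhere. *Krt24*, *Krt26* and *Krt72* were at 0 in all 16 samples, 27 of the 32 never exceeded 0.5 FPKM, and the highest value among them was 1.22 FPKM for *Krt42* in WT-DES 2. None of the 15 hair and nail keratins, of the 9 root sheath keratins, or the corneal keratin *Krt12* was tested. *Krt12*, *Krt75*, *Krt2* and *Krt9* are named after their values were seen. *Krt12* was above 0 in all 4 WT-DES samples, at 0.35, 0.35, 0.07 and 0.52, and at most 0.06 in the other 12. *Krt75*, a keratin of the hair follicle companion layer, reached 0.96 and 1.07 in WT-DES 2 and WT-DES 3 and at most 0.19 in the other samples. *Krt2* and *Krt9*, the epidermal keratins next to *Krt1* in function, stayed at or below 0.12 in all samples.

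After neonatal DES, WT males at 5 weeks had less of the abundant simple keratins and more of *Krt7*, *Krt20*, *Krt5* and *Krt79*, of the 4 activation keratins, of 3 mucosal keratins and of the epidermal pair *Krt1* and *Krt10*. A gene counted as changed if limma's adjusted p was at most 0.05, the mean FPKM differed by at least 1.5-fold and its mean was above 1 in 1 of the groups. Among the 13 keratins with a mean above 1 in WT-veh, 6 were higher, 3 were lower and 4 did not pass, beside 52.7% of all 15988 genes tested that changed, 28.9% higher and 23.9% lower. The 6 keratins that were above 1 in WT-DES alone, *Krt1*, *Krt6a*, *Krt6b*, *Krt13*, *Krt16* and *Krt79*, entered the test because they were high there, and they were higher, as was *Krt78*. Over all 20 tested, 13 were higher and 3 lower. Summed keratin FPKM was 1440 ± 89.6 in WT-veh and 1393 ± 403 in WT-DES, with overlapping samples. Without WT-DES 1 and WT-DES 4 the counts were 12 higher and 3 lower.

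**Figure D1:**
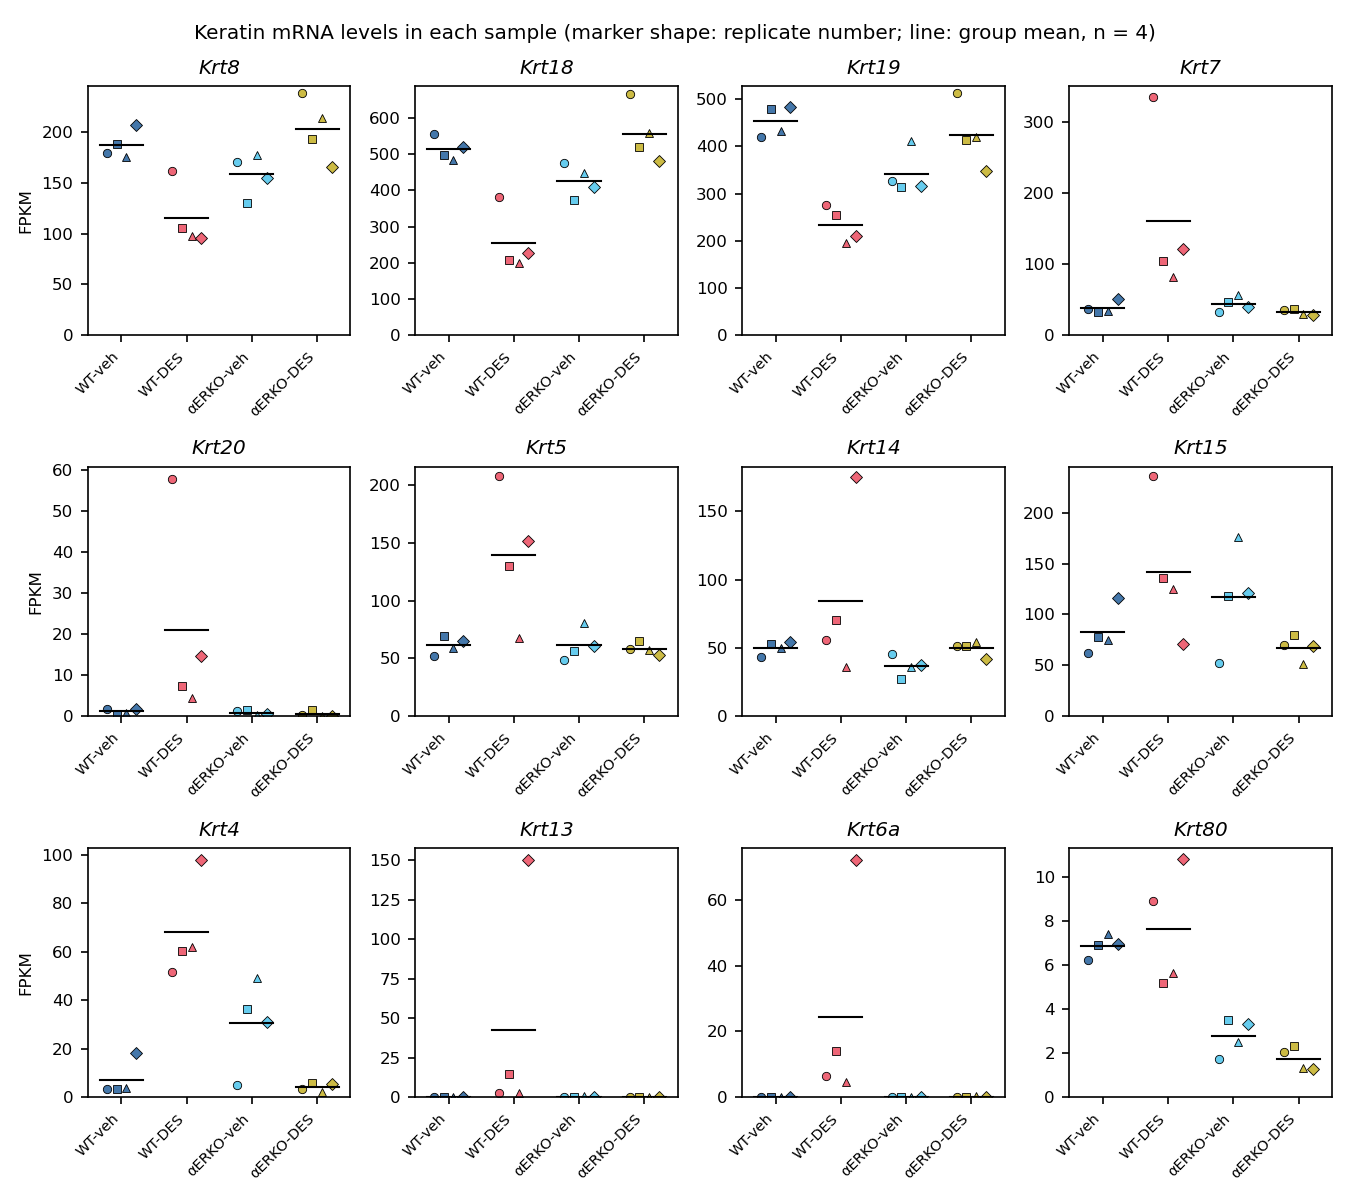
FPKM of 12 keratin genes in each of the 16 samples, on linear axes from 0; colours are groups, marker shapes are replicate numbers and lines are group means of 4 samples. *Krt8*, *Krt18* and *Krt19* sit lower in WT-DES, *Krt7*, *Krt20*, *Krt4*, *Krt13* and *Krt6a* sit higher there, with *Krt13* reaching 150.28 in WT-DES 4 and at most 14.52 in the other WT-DES samples, and *Krt80* is lower in both αERKO groups.

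The 3 abundant simple keratins fell. *Krt18*, the type I filament partner of the secretory epithelium, was at 557.59, 499.28, 485.01 and 520.87 FPKM in the WT-veh samples and at 380.99, 206.67, 199.10 and 227.54 in WT-DES. All WT-DES samples lay below all WT-veh samples, WT-DES 1 nearest to them. *Krt18* differed by −1.07 on the log2(FPKM + 1) scale (SE 0.17, limma adjusted p = 4.98e-05), 2.03-fold in mean FPKM. *Krt19*, a type I keratin of simple epithelium and ducts, was at 419.92, 478.75, 433.54 and 483.78 in WT-veh and at 276.65, 255.12, 194.87 and 210.56 in WT-DES, again without overlap. Its log2 difference was −0.96 (SE 0.14, adjusted p = 1.41e-05). *Krt8*, the type II partner, was at 179.72, 188.49, 175.39 and 207.22 in WT-veh and at 161.26, 105.98, 97.70 and 96.07 in WT-DES, with WT-DES 1 close to the WT-veh range. Its log2 difference was −0.73 (SE 0.16, adjusted p = 0.000648). Within a sample the ratio of *Krt18* to *Krt8* FPKM was 1.95 to 2.37 in WT-DES, below the 2.51 to 3.10 of WT-veh, the 2.53 to 2.86 of αERKO-veh and the 2.61 to 2.92 of αERKO-DES.

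Of 6 pan-epithelial genes, which code for adhesion and junction proteins and an epithelial transcription factor, 3 were lower in WT-DES and 0 were higher. These 50% called are close to the 52.7% of all genes tested. *Cldn3*, a claudin of tight junctions with the highest mean of them over all samples, was at 383.58 to 457.74 in WT-veh and 46.51 to 159.58 in WT-DES, while *Cdh1* (E-cadherin) was at 62.10 to 75.45 and 75.28 to 98.46. The summed FPKM of the 6 was 504.74 to 616.74 in WT-DES against 950.54 to 1090.4 in WT-veh. Scaled to these 6 genes, the log2 difference was −0.47 for *Krt18*, −0.36 for *Krt19* and −0.13 for *Krt8*, and none of them passed. With quantile normalization they were −0.15, −0.04 and −0.04, and none passed. The *Krt8* call was also lost with median-ratio scaling and with the length correction. Rescaling without the 20 most abundant genes ended the calls of *Krt8* and *Krt19*. The sign stayed the same in each case. The part of the epithelial share of the tissue in these falls was not tested.

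**Figure D2:**
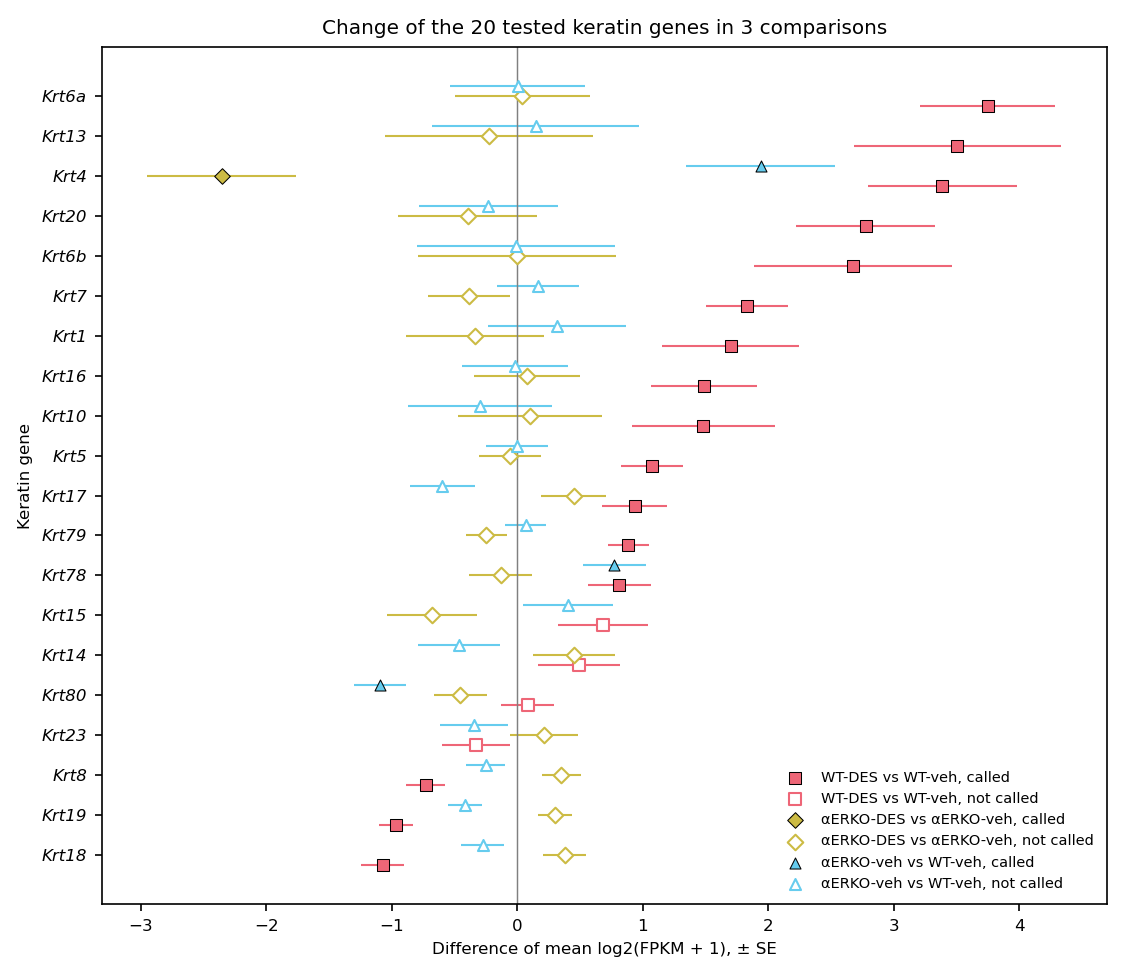
Difference of mean log2(FPKM + 1) with its standard error for the 20 tested keratins, in WT-DES against WT-veh (squares), αERKO-DES against αERKO-veh (diamonds) and αERKO-veh against WT-veh (triangles); filled markers passed the test. The WT-DES differences run from −1.07 for *Krt18* to 3.75 for *Krt6a*, while in αERKO-DES against αERKO-veh *Krt4* alone is filled, at −2.35.

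The other 2 simple keratins rose. *Krt7*, a type II keratin of ducts and transitional epithelium, was at 37.06, 31.83, 33.68 and 50.43 FPKM in WT-veh and at 335.67, 104.33, 81.70 and 120.79 in WT-DES. All WT-DES samples lay above all WT-veh samples, and WT-DES 1 was far above the rest. The log2 difference of *Krt7* was 1.83 (SE 0.33, limma adjusted p = 0.000128). Within a sample, the *Krt7* to *Krt8* ratio of FPKM lay at 0.169 to 0.243 for WT-veh and 0.836 to 2.08 for WT-DES. *Krt20*, a type I keratin of umbrella cells of the bladder and of intestinal epithelium, was at 1.79, 0.45, 0.79 and 1.62 in WT-veh and at 57.87, 7.41, 4.44 and 14.59 in WT-DES. Its log2 difference was 2.78 (SE 0.55, adjusted p = 0.000352), and 2.10 without WT-DES 1.

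Of the 3 basal layer keratins, *Krt5* passed the test. *Krt5*, the type II keratin of basal cells, was at 52.13, 69.10, 58.81 and 64.77 FPKM in WT-veh and at 208.04, 130.26, 67.74 and 151.74 in WT-DES. WT-DES 3 lay inside the WT-veh range and the other 3 above it. The log2 difference was 1.07 (SE 0.25, adjusted p = 0.00119). *Krt14*, its type I partner, was at 43.41, 52.75, 50.07 and 53.99 in WT-veh and at 55.46, 70.65, 35.75 and 175.03 in WT-DES, which put 1 WT-DES sample below and 3 above all WT-veh samples. Its log2 difference of 0.49 (SE 0.33, adjusted p = 0.187) did not pass. It passed without WT-DES 3, at 0.81 (adjusted p = 0.0203). *Krt15*, a type I keratin of basal and progenitor cells, was at 61.62, 77.99, 74.86 and 116.25 in WT-veh and at 235.82, 136.00, 125.36 and 70.67 in WT-DES. Here WT-DES 4 was lowest, where *Krt14* was highest. The difference of *Krt15* was 0.68 (SE 0.36, adjusted p = 0.0970), and it passed without WT-DES 4, at 0.97 (adjusted p = 0.0202), and without αERKO-veh 1, at an unchanged 0.68 (adjusted p = 0.0489). Beside these keratins, 8 of 10 other basal cell genes were higher in WT-DES and 0 were lower, beside 28.9% and 23.9% of all genes tested. *Bcam*, a laminin receptor, was at 49.37 to 59.42 in WT-veh and 72.74 to 130.46 in WT-DES. *Itgb4*, the integrin of hemidesmosomes, did not pass, at 31.58 to 53.23 and 42.74 to 46.52. *Dst*, which links keratin filaments to hemidesmosomes, was at 19.12 to 24.49 and 45.25 to 71.76.

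All 4 activation keratins rose, beside 28.9% of all genes tested that were higher. *Krt6a*, *Krt6b* and *Krt16* were near 0 in WT-veh and were tested through WT-DES alone, so their higher level there follows from that. *Krt6a*, a type II keratin induced in injured and hyperproliferative epithelium, was at 0.07, 0.04, 0.11 and 0.11 FPKM in WT-veh and at 6.49, 14.02, 4.44 and 72.22 in WT-DES. Every WT-DES sample was at least 4.44, and WT-DES 4 was far above the rest. The log2 difference of *Krt6a* was 3.75 (SE 0.54, adjusted p = 1.69e-05) and 2.97 without WT-DES 4. *Krt6b*, its near copy, was at 0.02 to 0.07 in WT-veh and at 1.53, 5.83, 0.58 and 71.98 in WT-DES. Its difference was 2.68 (SE 0.79, adjusted p = 0.00662), 1.53 without WT-DES 4 and 3.37 without WT-DES 3, and it did not pass in a model of only WT-DES and WT-veh (adjusted p = 0.0514). The ratio of *Krt6b* to *Krt6a* in WT-DES ran from 0.131 to 0.997. *Krt16*, a type I partner, was at 0.07 to 0.16 in WT-veh and at 0.74, 2.02, 0.63 and 10.18 in WT-DES, with a difference of 1.49 (SE 0.42, adjusted p = 0.00516) and 0.87 without WT-DES 4. *Krt17*, another type I partner, was already present, at 13.15, 14.73, 16.58 and 18.91 in WT-veh, and was at 21.68, 62.56, 25.96 and 25.86 in WT-DES, highest in WT-DES 2. The log2 difference of *Krt17* was 0.94 (SE 0.26, adjusted p = 0.00430). Together the 4 genes went from 0.955% to 1.24% of keratin FPKM in WT-veh to 1.67% to 11.2% in WT-DES.

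Of the 4 mucosal keratins, the 3 tested rose, beside 28.9% of all genes tested that were higher, and *Krt76* was at most 0.15 FPKM in any sample. *Krt13* was tested through WT-DES alone, and *Krt78*, with a mean of 0.60 in WT-veh, could be called only as higher. *Krt4*, the type II keratin of oesophagus, vagina and other wet stratified epithelia, was at 3.38, 3.35, 3.58 and 18.37 FPKM in WT-veh and at 51.62, 60.50, 62.16 and 98.07 in WT-DES. The groups did not overlap, and WT-veh 4 stood above the other WT-veh samples. Its log2 difference was 3.39 (SE 0.59, adjusted p = 0.000114), 9.50-fold in mean FPKM. The mean log2(FPKM + 1) of the skeletal muscle markers was 6.98 in WT-veh 4 and 1.80 to 3.37 in WT-DES, and their part in *Krt4* was not tested. *Krt13*, the type I partner, was at 0.17, 0.04, 0.16 and 0.20 in WT-veh and at 2.56, 14.52, 2.39 and 150.28 in WT-DES. WT-DES 4 held more than the other WT-DES samples together, and the ratio of *Krt4* to *Krt13* ran from 0.653 to 26.0 in WT-DES. The difference of *Krt13* was 3.51 (SE 0.83, adjusted p = 0.00139). It was 2.33 without WT-DES 4, 4.13 without WT-DES 1 and 4.15 without WT-DES 3. *Krt78*, a type II keratin of stratified epithelium, was at 0.37 to 0.74 in WT-veh and at 1.88, 1.5, 0.91 and 3.49 in WT-DES, with a difference of 0.81 (SE 0.25, adjusted p = 0.00851). Without WT-DES 1 and WT-DES 4 it was 0.45 (adjusted p = 0.117).

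The epidermal pair *Krt1* and *Krt10* was far higher in WT-DES 4 than in any other sample. *Krt1* was at 0.33, 0.43, 0.37 and 0.50 FPKM in WT-veh and at 1.41, 2.15, 1.24 and 24.57 in WT-DES. Its log2 difference was 1.70 (SE 0.55, adjusted p = 0.0114) and 0.87 without WT-DES 4 (adjusted p = 0.000280). It did not pass in a model of only WT-DES and WT-veh (adjusted p = 0.0653). *Krt10*, the type I partner, was at 2.24, 2.35, 2.46 and 2.64 in WT-veh and at 5.51, 6.31, 2.16 and 54.55 in WT-DES, with WT-DES 3 below the WT-veh samples. Its difference was 1.48 (SE 0.57, adjusted p = 0.0290). It was 0.64 without WT-DES 4 (adjusted p = 0.0146) and no longer passed without WT-veh 1, 2 or 3 (1.46 to 1.49, adjusted p = 0.0511 to 0.0548) or without both WT-DES 1 and WT-DES 4 (0.49, adjusted p = 0.0682), nor in a model of only the 2 groups (adjusted p = 0.117). *Krt79*, a keratin of hair follicle and sebaceous ducts, was at 0.05 to 0.45 in WT-veh and at 1.34, 1.66, 0.59 and 1.98 in WT-DES, with a difference of 0.89 (SE 0.17, adjusted p = 0.000195). *Krt23* and *Krt80*, type I and type II keratins of differentiating epithelia, did not pass, at −0.33 (SE 0.27, adjusted p = 0.288) and 0.08 (SE 0.21, adjusted p = 0.728). *Krt23* was at 16.37, 12.84, 12.23 and 14.59 in WT-veh and at 6.77, 16.85, 6.83 and 17.53 in WT-DES, where 2 samples lay below and 2 above all WT-veh samples.

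Shares of the summed keratin FPKM describe the same change without a test. The simple keratins held 41.6% to 66.5% of keratin FPKM in WT-DES, below the 74.5% to 84.7% of αERKO-veh and the 83.2% to 86.7% of αERKO-DES. The basal keratins held 24.7% to 27.8% in WT-DES, against 12.3% to 19.9% and 10.673% to 13.971% in the αERKO groups. The mucosal keratins held 3.08% to 15.6% in WT-DES and 0.277% to 1.23% in WT-veh, while αERKO-veh samples were at 0.522% to 3.59% and αERKO-DES samples at 0.230% to 0.563%. These shares do not depend on the scaling of a sample as a whole.

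**Figure D3:**
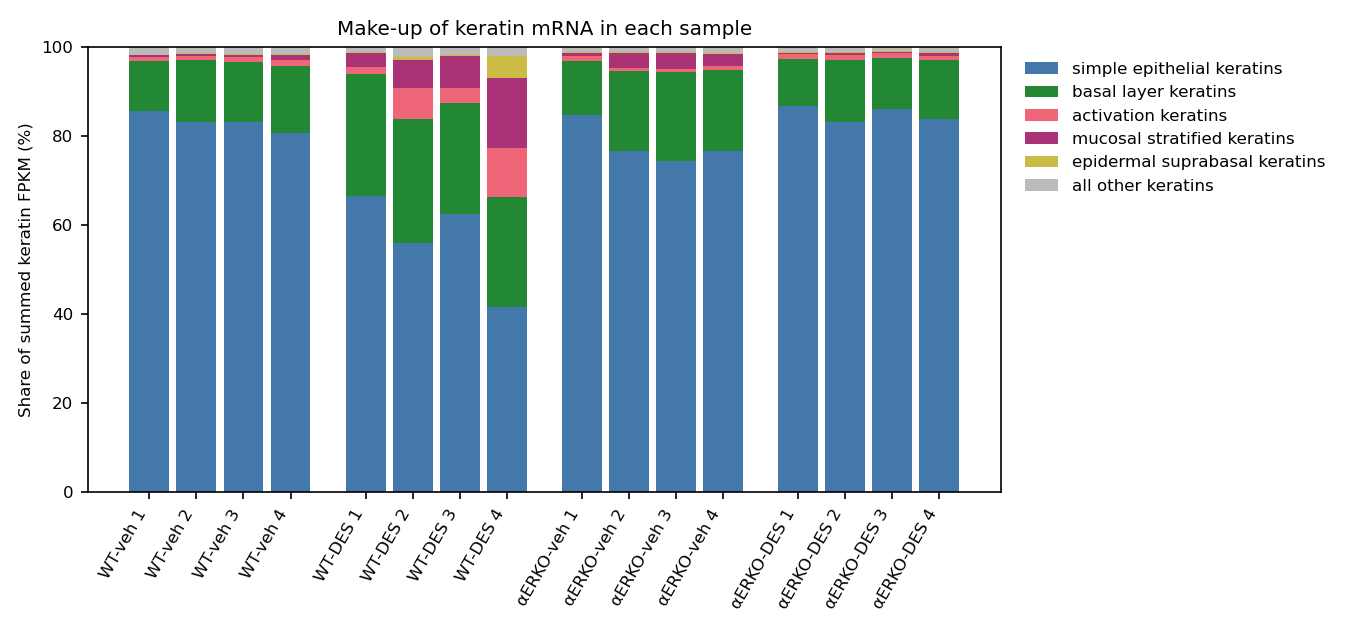
Share of the summed keratin FPKM held by each keratin group, in percent, with 1 bar for each of the 16 samples. Simple keratins hold 80.8% to 85.6% of each WT-veh bar and 41.6% to 66.5% of each WT-DES bar, and the mucosal and activation shares are largest in WT-DES 4.

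The 4 WT-DES samples were unlike each other in which keratins were high, and other epithelial genes moved with that. WT-DES 1 was highest of the 4 for *Krt7*, *Krt20*, *Krt5*, *Krt15*, *Krt8*, *Krt18* and *Krt19*, and the uroplakins, the plaque proteins of bladder epithelium, summed to 2031.2 FPKM there against 130.94 to 315.07 in the other WT-DES samples and 120.36 to 225.32 in WT-veh. *Upk1b* was at 398.89 in WT-DES 1 and 35.00 to 78.56 in the other 3, against 59.25 to 73.84 in WT-veh. *Upk1a* was at 671.76 and 43.08 to 102.87, against 15.20 to 76.46, and *Upk2* at 356.75 and 15.43 to 49.16, against 43.50 to 62.76. *Upk3a* was at 500.59 and 18.05 to 68.88, against 1.53 to 15, and *Upk3b* at 103.17 and 15.60 to 22.49, against 0.72 to 2.04. *Upk3a* and *Upk3b*, like *Krt7* and *Krt20*, were thus above every WT-veh sample in WT-DES 2, 3 and 4 too, while *Upk1b*, *Upk1a* and *Upk2* overlapped with WT-veh there. Of the 5 uroplakins, *Upk1a*, *Upk3a* and *Upk3b* passed as higher and 0 as lower, 60% called beside 52.7% of all genes tested. The smooth muscle markers named above were high in WT-DES 1 too.

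WT-DES 4 was highest for *Krt1*, *Krt10*, *Krt13*, *Krt14*, *Krt16*, *Krt6a*, *Krt6b*, *Krt4* and *Krt78*. Of 12 tested cornified envelope genes, which build the tough shell of stratified cells, 7 were higher in WT-DES and 0 lower, 58.3% called beside 52.7% of all genes tested. Of the 12, 6 were tested through WT-DES alone, where they are high, and 2 of these are among the 7. *Sprr1a*, the most abundant of them, was at 11.04 to 68.61 in WT-veh and at 831.76, 218.89, 159.85 and 352.49 in WT-DES, highest in WT-DES 1. *Sfn*, a 14-3-3 protein of stratified epithelium, was at 19.26 to 28.48 and at 128.14, 49.26, 26.62 and 62.14, and *Calml3*, a calmodulin-like protein, at 9.64 to 13.20 and at 27.31, 103.35, 47.13 and 92.11, lowest in WT-DES 1. *Ivl* (involucrin) was at 181.24 in WT-DES 1 against 25.89 to 32.32 in the other 3. *Cnfn* and *Krtdap*, chosen after their values were seen, were highest in WT-DES 4, *Cnfn* at 85.00 against 0 to 0.60 in the other 3 and *Krtdap* at 52.83 against 1.00 to 18.79. WT-DES 3 was lowest of the 4 for *Krt14*, *Krt5*, *Krt10*, *Krt6a* and *Krt6b*. The part of the uroplakin, smooth muscle and cornified genes in the keratin differences was not tested.

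**Figure D4:**
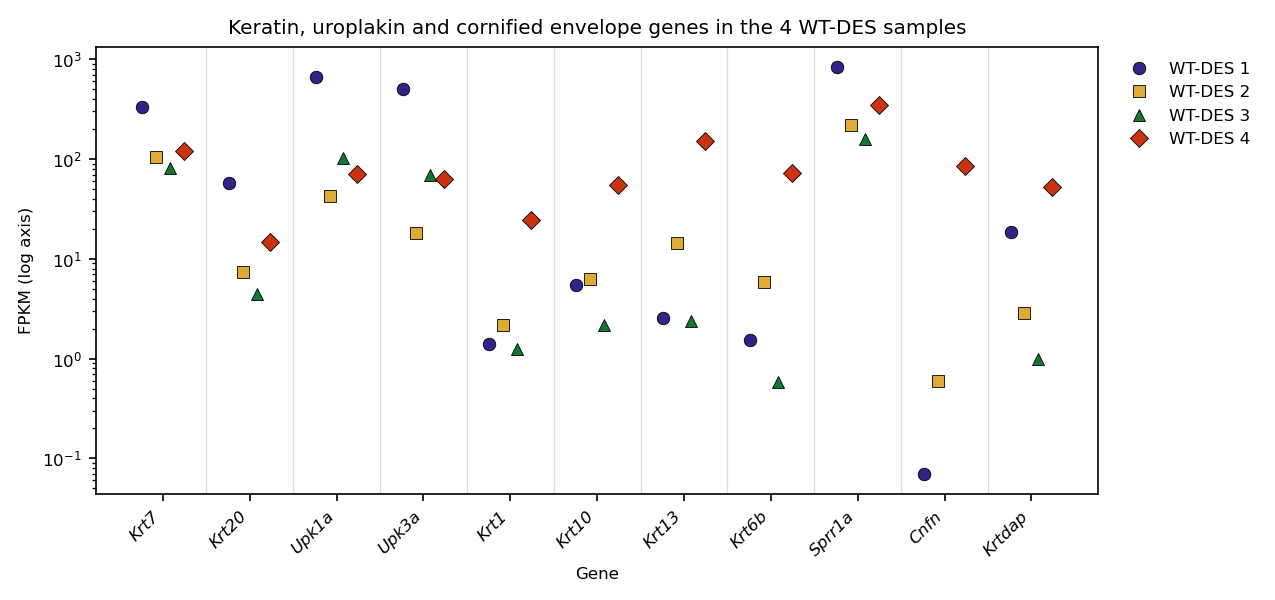
FPKM on a log axis of 6 keratin, 2 uroplakin and 3 cornified envelope genes in the 4 WT-DES samples, 1 marker per sample; *Cnfn* in WT-DES 3, at 0, cannot be drawn. WT-DES 1 is on top for *Krt7*, *Krt20*, *Upk1a*, *Upk3a* and *Sprr1a*, and WT-DES 4 for *Krt1*, *Krt10*, *Krt13*, *Krt6b*, *Cnfn* and *Krtdap*.

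Among genes of the proteins that anchor keratin filaments, the share called was close to that of all genes. Of 13 tested desmosome and plakin genes, 5 were higher in WT-DES and 2 lower, 53.8% beside 52.7% of all genes tested. *Dsg3* and *Dsc3*, desmosomal cadherins among the 5, were tested through WT-DES alone. *Perp*, *Jup*, *Pkp3* and *Dsp* had the highest levels over all samples. *Dsp*, the plakin that ties keratins to the desmosome, was at 13.71 to 19.13 FPKM in WT-veh and 17.41 to 26.98 in WT-DES, with overlapping samples. *Perp*, a desmosome-associated membrane protein of stratified epithelia, was at 140.81 to 160.93 and at 170.17, 95.90, 64.41 and 121.93. Of 9 non-keratin intermediate filament genes, 3 were higher and 1 lower, 44.4% called. *Gfap*, counted among the higher, was tested through WT-DES alone.

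In αERKO males few keratins passed the test of a difference with DES. Of the 20 tested keratins, 0 were higher and 1, *Krt4*, was lower in αERKO-DES than in αERKO-veh, beside 1.49% of all genes tested that changed. *Krt18* was at 373.84 to 476.44 FPKM in αERKO-veh and at 482.87 to 665.83 in αERKO-DES, without overlap. Its log2 difference was 0.38 (SE 0.17, limma adjusted p = 0.187). The model shares 1 spread per gene over all 4 groups, so the spread of WT-DES enters this SE. Over 31 other settings the adjusted p of limma went down to 0.00249, and *Krt18* was called in 0 of them. *Krt6a* was at 0.07 to 0.09 and at 0.07 to 0.17, *Krt13* at 0.08 to 0.49 and at 0 to 0.13, and *Krt7* at 31.81 to 56.30 and at 28.49 to 36.56. *Krt20* was at 0.35 to 1.38 and at 0.19, 1.46, 0.09 and 0.05. None of these passed, and a p above the threshold does not show that the groups were equal.

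The change with DES differed between the genotypes for 15 of the 20 keratins, tested as the difference in WT minus that in αERKO, beside 56.4% of all genes tested (29.6% higher in WT, 26.9% lower). Of these keratins, 12 had the higher difference in WT and 3, *Krt8*, *Krt18* and *Krt19*, the lower. The split was 7 and 0 with quantile normalization, where the lower ones were −0.32 for *Krt18*, −0.12 for *Krt19* and −0.21 for *Krt8*. It was 15 and 1 scaled to pan-epithelial genes, and 14 and 2 rescaled without the 20 most abundant genes. In the same order, 45.8%, 87% and 78.8% of all genes called were higher. *Krt1*, *Krt6a*, *Krt6b*, *Krt13*, *Krt16* and *Krt79*, which are 6 of the 12, were tested only because they were high in WT-DES, so their count supports nothing. The difference was 5.74 on the log2 scale for *Krt4* (SE 0.84, limma adjusted p = 2.66e-05), 3.71 for *Krt6a* (SE 0.76, adjusted p = 0.000521), 3.17 for *Krt20* (SE 0.78, adjusted p = 0.00214) and −1.45 for *Krt18* (SE 0.24, adjusted p = 9.34e-05). That of *Krt4* includes its high values in the muscle-rich αERKO-veh samples described below, and was 6.41 without αERKO-veh 1 and 4.27 without WT-veh 4 and αERKO-veh 2, 3 and 4. *Krt10*, *Krt14*, *Krt17*, *Krt23* and *Krt80* did not pass. For *Krt17* the difference was 0.48 (SE 0.37, adjusted p = 0.246), with a value in αERKO-DES against αERKO-veh of 0.45 (SE 0.26, adjusted p = 0.285). The calls for *Krt16* (1.41) and *Krt6b* (2.68) had the highest adjusted p (0.0455 and 0.0430). Each was lost on leaving out any of 13 of the 16 samples, with adjusted p = 0.0560 to 0.0722 and 0.0583 to 0.0647, the 3 that kept it being WT-DES 1, 3 and 4. Without the muscle-rich WT-veh 4 and αERKO-veh 2, 3 and 4, which leaves 1 αERKO-veh sample, 5 keratins had the higher and 3 the lower difference. Without WT-DES 4 it was 2.55 for *Krt13*, 2.93 for *Krt6a*, 1.53 for *Krt6b*, 1.21 for *Krt1* and 0.80 for *Krt16*. It was 4.35 for *Krt13* and 2.49 for *Krt20* without WT-DES 1, and 4.38 for *Krt13* and 3.37 for *Krt6b* without WT-DES 3. *Krt10* passed without WT-DES 3, at 1.91 (adjusted p = 0.0251), and *Krt80* without WT-DES 2 or αERKO-veh 1, at 0.68 in both (adjusted p = 0.0476 and 0.0450).

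αERKO-DES set against WT-DES shows the same levels from the other side and shares the WT-DES samples with the comparison above. Here 3 of the 20 were higher in αERKO-DES and 14 lower, beside 53.4% of all genes tested (23.7% higher, 29.6% lower). Of the 14, 6 were the keratins that were tested through WT-DES alone, whose lower level in αERKO-DES follows from that. *Krt15*, which had not passed between WT-DES and WT-veh, was at 51.33 to 79.62 in αERKO-DES, a log2 difference from WT-DES of −0.96 (SE 0.36, adjusted p = 0.0251). It was −0.67 without WT-DES 1 (adjusted p = 0.0889) and −0.84 without αERKO-DES 3 (adjusted p = 0.0704). *Krt80* was lower by −1.63 (SE 0.21, adjusted p = 5.21e-06). *Krt14*, *Krt23* and *Krt78* did not pass, though *Krt14* did without WT-DES 3 (−0.83, adjusted p = 0.0185). Without WT-DES 4 the difference was −2.40 for *Krt13*, −2.93 for *Krt6a*, −1.53 for *Krt6b*, −0.89 for *Krt1*, −0.83 for *Krt10* and −0.82 for *Krt16*, all of which still passed. It was −4.21 for *Krt13* and −2.72 for *Krt20* without WT-DES 1, and −4.23 for *Krt13* and −3.38 for *Krt6b* without WT-DES 3. *Krt1* and *Krt10* did not pass here in a model of only WT-DES and αERKO-DES or with quantile normalization (adjusted p up to 0.0728 and 0.109).

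Loss of ERα without DES went with few keratin calls, where the spread of WT-DES again enters each SE. Between αERKO-veh and WT-veh, 2 of the 20 were higher and 1 lower, beside 7.12% of all genes tested that changed. *Krt80*, a type II keratin of differentiating epithelium that lies at the end of the chromosome 15 cluster (101347444 to 101370162), was at 6.23, 6.89, 7.42 and 6.96 FPKM in WT-veh and at 1.72, 3.49, 2.51 and 3.33 in αERKO-veh. In αERKO-DES *Krt80* was at 2.04, 2.32, 1.30 and 1.28, and in WT-DES at 8.93, 5.18, 5.63 and 10.84. Every αERKO sample lay below every WT sample, with or without DES. The log2 difference was −1.09 between the vehicle groups (SE 0.21, limma adjusted p = 0.00634) and −1.54 between αERKO-DES and WT-veh (SE 0.21, adjusted p = 0.00126). In the latter comparison *Krt80* alone among the 20 passed, beside 3.18% of all genes tested. Without WT-veh 4 and αERKO-veh 2, 3 and 4 the difference of *Krt80* between the vehicle groups was −1.53 (adjusted p = 0.388, with 1 αERKO-veh sample) and that between αERKO-DES and WT-veh −1.54 (adjusted p = 0.0120).

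*Krt4* and *Krt78* were the keratins higher in αERKO-veh, and skeletal muscle markers moved with *Krt4*. *Krt4* was at 5.14, 36.40, 49.04 and 31.00 FPKM in αERKO-veh, against 3.38, 3.35, 3.58 and 18.37 in WT-veh and 3.14, 5.91, 2.01 and 5.29 in αERKO-DES. The 4 vehicle samples with high *Krt4* were the 4 with high muscle markers. *Mylpf*, a fast muscle myosin light chain, was at 306.64 in WT-veh 4 and 249.99, 384.12 and 219.15 in αERKO-veh 2, 3 and 4, against 2.48 to 27.11 in the other 4 vehicle samples. *Acta1*, the most abundant marker, did not separate them, at 705.46, 526.16, 624.87 and 521.01 against 471.21 to 577.11. Of the 6 markers, 2 were higher in αERKO-veh than in WT-veh and 4 lower in αERKO-DES than in αERKO-veh, beside 7.12% and 1.49% of all genes tested that changed. Their part in the keratin values was not tested. The log2 difference of *Krt4* was 1.94 between αERKO-veh and WT-veh (SE 0.59, adjusted p = 0.0279) and −2.35 between αERKO-DES and αERKO-veh (SE 0.59, adjusted p = 0.0486). Without the 4 muscle-rich samples they were 0.47 and −0.35, with 1 αERKO-veh sample left. Since these are also the vehicle samples with high *Krt4*, leaving them out lowers both differences by construction. *Krt78* was at 0.74 in WT-veh 4, 0.37 to 0.73 in the other WT-veh samples and 1.11 to 1.84 in αERKO-DES, where the markers were low. Its αERKO-veh values were 0.85, 1.90, 3.19 and 1.47. They ranked as the marker means of the same samples, 4.49, 7.22, 7.72 and 6.93. The difference of *Krt78* from WT-veh was 0.78 (SE 0.25, adjusted p = 0.0344). It was 0.26 without the muscle-rich samples, where the αERKO-veh sample left is the lowest in *Krt78*. *Krt15* followed the same samples without passing, at 52.08 in αERKO-veh 1, 118.56 to 175.77 in αERKO-veh 2, 3 and 4 and 116.25 in WT-veh 4, against 61.62 to 77.99 in the other WT-veh samples.

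Leaving out 1 sample at a time, the *Krt4* difference between the vehicle groups did not pass without WT-veh 1, 2 or 3 or αERKO-veh 2, 3 or 4 (1.60 to 1.82, adjusted p = 0.0621 to 0.0901) and was 2.61 without αERKO-veh 1. That between αERKO-DES and αERKO-veh did not pass on leaving out any of 13 samples (−2.52 to −2.01, adjusted p = 0.0510 to 0.181), was called without WT-veh 4 or WT-DES 1 and was −3.02 without αERKO-veh 1 (adjusted p = 0.00284). *Krt78* did not pass without any of 7 samples, which were the WT-veh samples and αERKO-veh 2, 3 and 4 (0.57 to 0.82, adjusted p = 0.0527 to 0.0997). *Krt19* differed by −0.41 between the vehicle groups (SE 0.14, adjusted p = 0.0368), under the 1.5-fold limit.

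**Figure D5:**
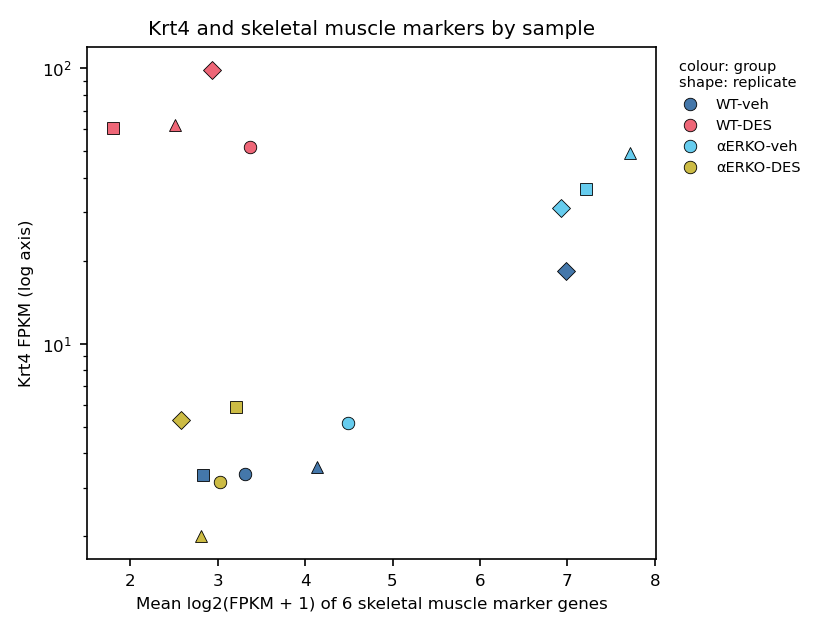
*Krt4* FPKM on a log axis against the mean log2(FPKM + 1) of 6 skeletal muscle marker genes in the 16 samples; colours are groups and shapes replicate numbers. WT-veh 4 and αERKO-veh 2, 3 and 4 lie to the right, with *Krt4* at 18.37 to 49.04, and the 4 WT-DES samples lie high at the left, with *Krt4* at 51.62 to 98.07 and muscle markers at 1.80 to 3.37.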

How the data were processed

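RNA-seq had been done on 16 SV samples in 4 groups of 4, as the labels give them. The authors kept paired-end reads of 126 nt with a sufficient average quality, aligned them to mm10 (GRCm38), and deposited FPKM per gene with 2 decimals; the submitters' processing notes name TopHat2 2.0.4 and Cufflinks 2.0.2. The annotation of the table is not given in the sources used here. FPKM holds no counts, so total depth is unknown. Low values fall on steps worth 1 fragment, and these steps over 580 low genes put the relative depth (mean of all samples 1) at 1.07 to 1.22 in WT-DES and 0.886 to 1.02 over the other groups.

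Values were analysed as log2(FPKM + 1), which understates the change of low genes, with limma 3.58.1 in R 4.3.3. One model held 1 mean per group over 15988 genes, those whose mean FPKM exceeded 1 in any group, with the variance following a trend on level, and p-values were adjusted over all of them by Benjamini-Hochberg. The members, keratin groups and marker lists were chosen with earlier results of these data known. Values per sample are given for keratins with a mean of at least 10 FPKM in a group, those changed at least 4-fold in WT-DES, their filament partners, and those called in an αERKO comparison with a vehicle group, which together are the 20 tested; of the context lists, up to 4 genes with the highest mean, with *Upk3b*, *Cnfn*, *Krtdap* and *Cdh1* chosen after their values were seen. Coordinates are from GENCODE M21, promoters from RefSeq (GRCm38.p6).

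Alternatives were other pseudocounts and minimum levels, a replicate block, sample weights, a model without the other groups, a constant prior variance, 5 other scalings, a stricter threshold, the fold taken from the log2 difference, and leaving out each sample. On simulated data with 200 genes changed by 2 on the log2 scale, 14650 genes in all, WT-DES against WT-veh recovered 99.5%, with 3.40% of calls false. The interaction recovered 96.5%, with 7.21% of calls false. The simulation used normal noise with the same spread in every group, changed only genes well above the floor and left all others unchanged. In the data 52.7% of genes were called and many keratins varied most in WT-DES, so these rates do not carry over to the keratin calls. All columns of the table belonged to these samples. Keratin genes without a RefSeq promoter are named only.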

Additional observations from a re-analysis of the deposited data

Results flagged for a closer look

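Within groups of 4, 14 of the 80 gene and group series of the tested keratins held a sample whose gap to the nearest other sample was, as a share of the range, above Dixon's 95% limit. That limit is for normal values and 1 series at a time. Keratins moved together within samples, so the 80 series are not independent and the count has no chance rate beside it. WT-DES 4 was such a high sample for *Krt1* (24.57 FPKM), *Krt10* (54.55), *Krt13* (150.28), *Krt16* (10.18), *Krt6a* (72.22) and *Krt6b* (71.98). WT-DES 1 was one for *Krt7* (335.67), *Krt8* (161.26) and *Krt18* (380.99), and WT-DES 2 for *Krt17* (62.56). In the other groups these samples were WT-veh 4 for *Krt4* (18.37), αERKO-veh 3 for *Krt19* (411.92), αERKO-DES 2 for *Krt20* (1.46) and αERKO-veh 1 for *Krt6a*, whose low value of 0.07 differed from the others by 0.02 FPKM.

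By limma's test, the change with DES differed between WT and αERKO for 15 of the 20 tested keratins, beside 56.4% of all genes tested. On the log2 scale, WT minus αERKO, it was higher in WT for *Krt4* (5.74), *Krt13* (3.73), *Krt6a* (3.71), *Krt20* (3.17), *Krt6b* (2.68), *Krt7* (2.21), *Krt1* (2.03), *Krt16* (1.41), *Krt15* (1.37), *Krt5* (1.13), *Krt79* (1.13) and *Krt78* (0.95). *Krt1*, *Krt6a*, *Krt6b*, *Krt13*, *Krt16* and *Krt79* were tested through WT-DES alone. The calls of *Krt16* and *Krt6b* were lost on leaving out any of 13 of the 16 samples. For *Krt4* the difference was 6.41 without αERKO-veh 1 and 4.27 without the muscle-rich WT-veh 4 and αERKO-veh 2, 3 and 4. That of *Krt15*, not called between WT-DES and WT-veh, was 0.51 without the same muscle-rich samples. The difference was lower in WT for *Krt8* (−1.08), *Krt19* (−1.27) and *Krt18* (−1.45), none of which passed with quantile normalization (−0.21, −0.12 and −0.32).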

How the results depend on the processing

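The higher and lower keratins of WT-DES against WT-veh numbered 13 and 3 as reported, 14 and 2 with median-ratio scaling, 11 and 0 with quantile normalization, 15 and 1 rescaled without the 20 most abundant genes, 15 and 2 with the length correction and 16 and 0 scaled to pan-epithelial genes. These scalings moved the median of all genes by 0.132, −0.0703, 0.387, 0.00956 and 0.542. In the same order, 63.7%, 48.3%, 79.2%, 58.7% and 86.3% of all genes called were higher, so the keratin splits moved with the genes as a whole. The falls of *Krt8*, *Krt18* and *Krt19* are thus changes relative to the scaling chosen, while no called keratin difference changed its sign under any setting. In αERKO-DES against WT-DES the split of 3 and 14 became 0 and 12 with quantile normalization and 0 and 15 scaled to pan-epithelial genes. Of all genes called there, 53.8% and 13.1% were higher. Leaving out 1 sample gave 15 to 17 called keratins in WT-DES against WT-veh, 16 to 18 in αERKO-DES against WT-DES, 10 (without αERKO-veh 3) to 16 in the interaction, 1 to 4 in αERKO-veh against WT-veh, 0 to 1 in αERKO-DES against αERKO-veh and 1 to 1 in αERKO-DES against WT-veh. Besides *Krt16* and *Krt6b*, the interaction calls lost on leaving out a sample were *Krt15* (1.13 to 1.24 without WT-veh 1, αERKO-veh 3 or αERKO-DES 3), *Krt78* (0.72 to 0.87 without WT-veh 3, WT-DES 4, αERKO-veh 3 or αERKO-DES 3) and *Krt1* (1.89 without αERKO-veh 3). The interaction counts were 7 with quantile normalization, 9 at an adjusted p of at most 0.01 and 8 without WT-veh 4 and αERKO-veh 2, 3 and 4. Between αERKO-veh and WT-veh the count of 3 became 1 at an adjusted p of at most 0.01 and 0 without those samples. Its *Krt78* call was lost with no minimum on FPKM, with the length correction and scaled to pan-epithelial genes, and its *Krt4* call with a model of only the groups compared. In WT-DES against WT-veh quantile normalization also ended the calls of *Krt1*, *Krt10* and *Krt78*. For αERKO-DES against αERKO-veh it became 0 with no minimum on FPKM, with a model of only the groups compared, with no variance trend, under the median-ratio, quantile and rescaled values, at an adjusted p of at most 0.01 and without those samples, and 3 with sample weights. For αERKO-DES against WT-veh it became 2 with a model of only the groups compared and with sample weights. The settings that leave out WT-DES 1 and 4, or the muscle-rich samples, were chosen after seeing the data. The cause of these shifts was not tested, apart from the fewer samples where some are left out.

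The replicate numbers did not pair the samples: same-numbered deviations from the group means correlated at −0.215 to 0.277, not all above 0.1. With the number as a replicate block the called keratins were 16, 3, 1, 17, 1 and 15, each as without it.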
